A study of Arabidopsis thaliana with 6 samples.

Results

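F-box genes were the rows of both deposited tables whose description contains the words F-box, in any case. They numbered 80 of the 5330 genes in the tables. The tables came from RNA-seq of whole Arabidopsis seedlings and compared the Col-0 wild type with a line that the labels give as the epl1a epl1b genotype in the Columbia-0 background (written epl1ab below), with 3 libraries in each group, each from an independent experiment. The labels name no alleles for that line. All plants were 14 days old, were grown at 22 °C with 16 h of light and 8 h of darkness on medium with 1% sucrose, and were harvested at zeitgeber time 8 h. A whole seedling has no single defining marker, so the tissue label was not checked against one.

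An F-box protein is the subunit that picks the substrate in an SCF ubiquitin ligase. Its F-box motif binds a SKP1-like protein (ASK in Arabidopsis), which is held by a cullin, and a further domain in the same protein, such as Kelch repeats or leucine-rich repeats (LRR), binds the substrate, which is then marked with ubiquitin for breakdown. Plants have very large F-box families, with hormone receptors such as TIR1 and COI1 and photoreceptors such as ZTL among them, and most other members have no known substrate. Many lie in arrays of related copies. EPL1A and EPL1B are the Arabidopsis Enhancer of Polycomb proteins, subunits of the NuA4 complex, which acetylates histones.

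The tables hold only genes that the authors called changed, with a deposited log2 fold change of at least 1 in size and a false discovery rate under 0.05. Being listed is therefore what put a gene into the set, and an F-box gene that is not listed was not analysed here except as a count. The libraries held between 7355421 and 10938542 reads in listed genes, which is not their sequencing depth, and each value below is in normalised reads, that is reads divided by the library's scaling factor as recovered from the deposited fold changes. Of the mutated genes, EPL1A (AT1G16690) had 360.0, 378 and 364 normalised reads in Col-0 and 128, 122 and 124 in epl1ab. EPL1B (AT1G79020) had 743, 762 and 654 in Col-0 and 17029, 16996 and 17128 in epl1ab. EPL1B thus had more reads in the line whose label names it. A genotype label states no transcript level, and what kind of transcript these reads come from was not tested. Every direction below is one between the libraries labelled epl1ab and those labelled Col-0. Replicate 1 of epl1ab stood apart for some genes: 174 of the 5330 listed genes (3.26%) were over 8-fold lower in it than in both other epl1ab libraries, and 9 were over 8-fold higher.

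Some related F-box genes in the tables lie next to each other, and sequences of such genes are shown first. The deposited table places 4 LRR-type F-box genes in one stretch of chromosome 3. The first 120 coding bases of each are printed 5′ to 3′ (TAIR10 coordinates in the deposited table, sequence from the TAIR10.1 assembly, where all 80 genes have the same start and end). They are shown because these related genes moved in opposite directions. Capitals mark bases that were identical in all 4 in an alignment of the whole coding sequences.
AT3G59190 (chr3:21884740-21884859, plus strand): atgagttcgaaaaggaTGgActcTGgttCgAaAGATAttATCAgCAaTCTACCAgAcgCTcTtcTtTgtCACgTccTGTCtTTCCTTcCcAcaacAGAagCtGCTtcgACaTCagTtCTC
AT3G59200 (chr3:21887484-21887603, plus strand): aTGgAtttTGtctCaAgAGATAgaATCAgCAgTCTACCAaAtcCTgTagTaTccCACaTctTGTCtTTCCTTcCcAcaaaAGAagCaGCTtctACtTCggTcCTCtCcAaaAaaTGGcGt
AT3G59230 (chr3:21897668-21897787, minus strand): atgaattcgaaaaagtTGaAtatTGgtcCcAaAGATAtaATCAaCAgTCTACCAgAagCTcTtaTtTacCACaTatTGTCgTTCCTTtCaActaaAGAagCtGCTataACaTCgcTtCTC
AT3G59250 (chr3:21903165-21903284, minus strand): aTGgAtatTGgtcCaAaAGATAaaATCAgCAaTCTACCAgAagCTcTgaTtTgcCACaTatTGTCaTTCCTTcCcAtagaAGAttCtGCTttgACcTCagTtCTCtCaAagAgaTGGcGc
An adjacent pair on chromosome 2 was more alike, and its first 81 coding bases are shown with capitals where the pair was identical.
AT2G40910 (chr2:17071474-17071554, minus strand): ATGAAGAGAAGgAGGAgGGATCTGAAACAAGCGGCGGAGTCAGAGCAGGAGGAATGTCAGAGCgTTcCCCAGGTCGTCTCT
AT2G40920 (chr2:17073932-17074012, minus strand): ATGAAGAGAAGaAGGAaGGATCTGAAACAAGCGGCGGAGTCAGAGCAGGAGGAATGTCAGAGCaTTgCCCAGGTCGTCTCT
Over the aligned coding bases, identity between the chromosome 3 genes ran from 66.7% (AT3G59190 and AT3G59200) to 71.6% (AT3G59230 and AT3G59250), and that of the chromosome 2 pair was 80.3%. The longest stretch identical in a pair was 35 bases on chromosome 3 and 46 bases in the chromosome 2 pair. Both are shorter than the 50-base reads, so no read from these coding sequences could match 2 of the genes without a mismatch.

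Most F-box genes in the tables were higher in epl1ab, and they were weakly expressed genes. The authors listed 62 of the 80 as higher (77.5%, against 66.1% of all listed genes) and 18 as lower (22.5%, against 33.9%). In whole seedlings, more cells of a type and more RNA per cell cannot be told apart. The edgeR low-count filter kept 62 of the 80, leaving out 18 of those listed higher and none of those listed lower. All 62 had an edgeR adjusted p under 0.05, 44 of them higher (63.1% of all genes tested were called higher) and 18 lower (36.9%). Since 100% of the 4773 genes in that fit were called, nothing about F-box genes can be read from these calls. The libraries of both groups did not overlap in 79 of the 80 genes, against 98.5% of all listed genes. The exception was AT1G12855, a putative F-box gene with 7, 0 and 0 normalised reads in Col-0 and 24.2, 6.75 and 13.4 in epl1ab.

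Levels of F-box genes, counted per kilobase of exon so that genes can be compared, lay below those of the other listed genes. The median level of the 62 genes listed higher was 3.37 normalised reads per kb in Col-0 and 27.003 in epl1ab, where all genes listed higher had 22.7 and 95.9. The 18 listed lower had medians of 127.6 and 10.5 normalised reads per kb, where all genes listed lower had 893.9 and 308.4. In Col-0, 38 of the 62 (61.3%) had a mean under 10 normalised reads, against 33.6% of all genes listed higher, and 12 had no read in any Col-0 library (8.29% of all genes listed higher had none).

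**Figure D1:**
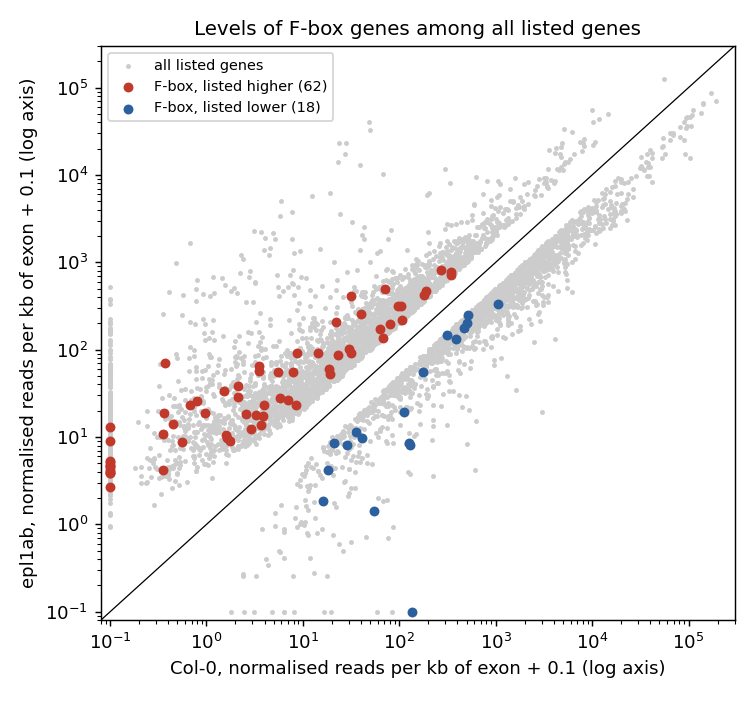
Mean level in Col-0 (x axis) and in epl1ab (y axis) of each listed gene, in normalised reads per kb of exon plus 0.1, on log axes; red and blue points are the 62 F-box genes listed higher and the 18 listed lower, grey points are all listed genes, and the line marks equal levels. The red points gather at the left, and the lowest blue point is AT3G59250, with no read in epl1ab. Counted without division by exon length, and so not on the plotted axis, 38 of 62 had a mean under 10 normalised reads in Col-0.

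The deposited log2 fold changes had a median of 2.85 over the F-box genes listed higher and of 1.94 over all genes listed higher. With genes at 0 reads in Col-0 set at their lower bound, that is against 3 reads over the Col-0 group, the medians were 2.44 and 1.92. At like Col-0 levels the medians were closer. Among genes with a Col-0 mean under 10 normalised reads the median was 2.83 for the 38 F-box genes and 3.07 for all 1185, and at or above 10 it was 1.59 for the 24 F-box genes and 1.58 for all 2339. Of the genes listed higher, 43 of the 62 F-box genes (69.4%) had a deposited log2 fold change above 2, against 47.9%. The 18 genes listed lower had a median of -1.74 (all listed lower, -1.45), and 8 of them (44.4%) were below -2, against 23.5%. The split of directions also differed by level. All 19 F-box genes with a mean under 10 normalised reads over both groups were listed higher (91.2% of all listed genes at that level), as were 26 of 36 between 10 and 100 (83.1% of all) and 17 of 25 above that (53.0% of all).

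**Figure D2:**
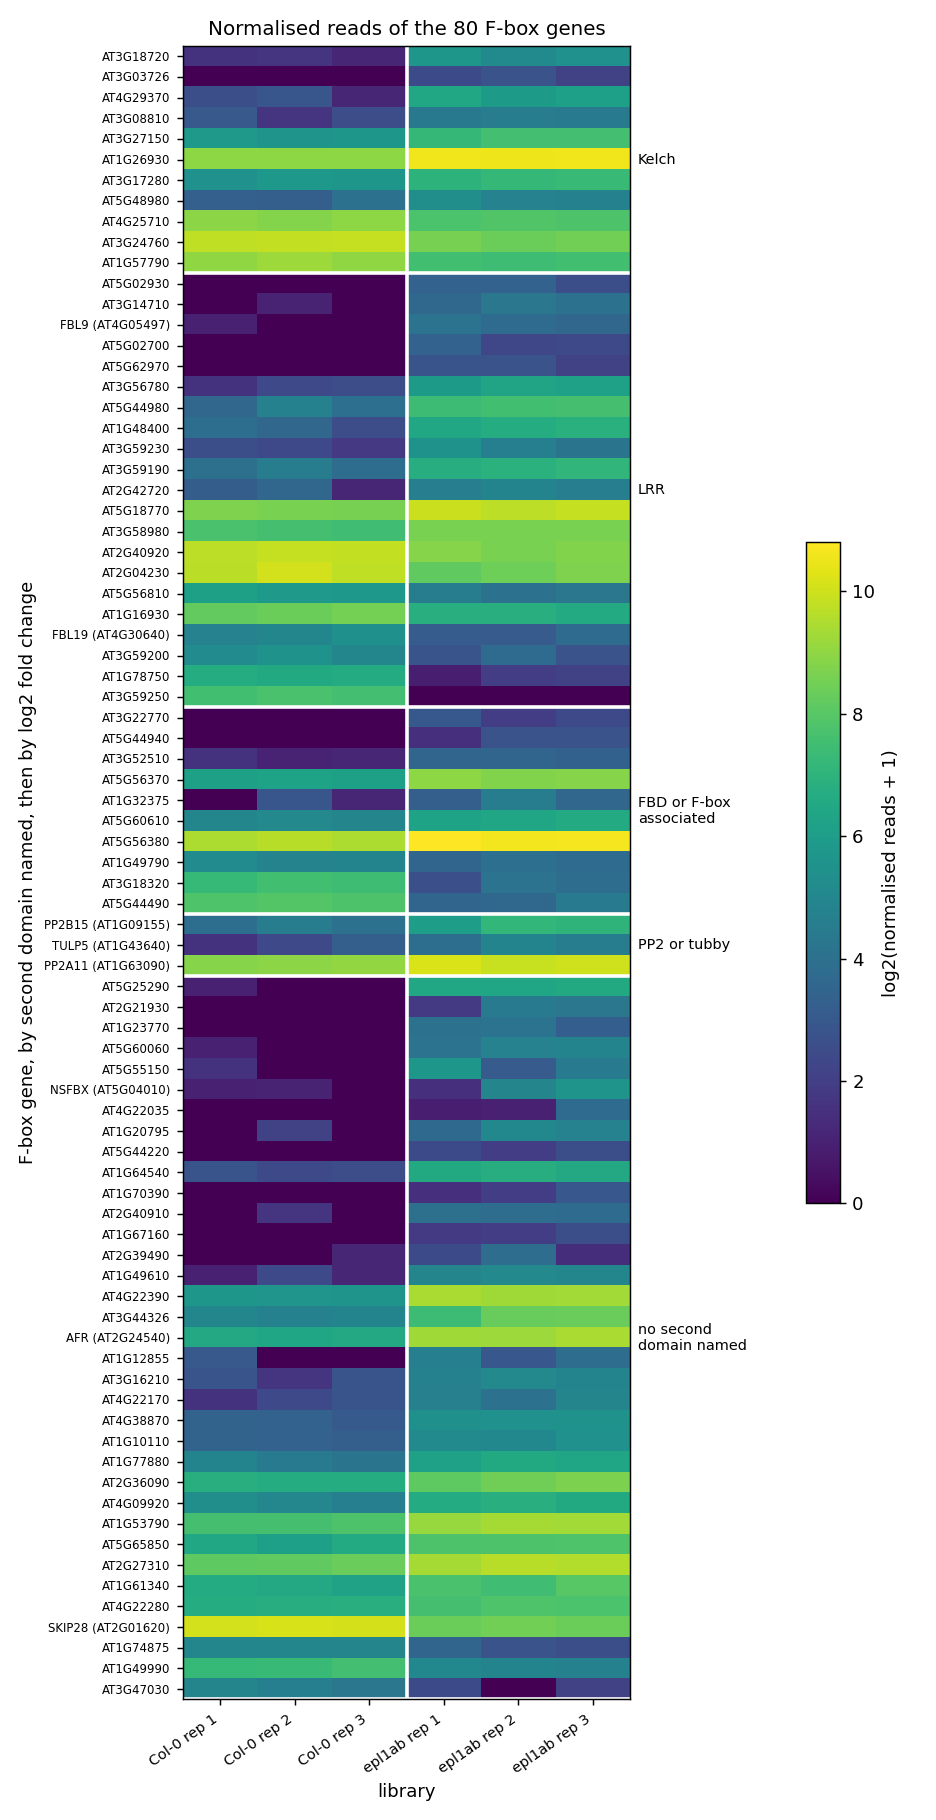
Normalised reads of all 80 F-box genes (rows) in the 6 libraries (columns), as log2(normalised reads + 1), grouped by the second domain in the description and, within a group, ordered by the deposited log2 fold change. AT5G25290 runs from 1, 0 and 0 reads in Col-0 to between 82.0 and 93.7 normalised reads in epl1ab, and AT3G59250 is dark in all 3 epl1ab libraries.

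By the second domain named in the description, 11 of the 80 genes were Kelch-repeat proteins, 21 LRR proteins (RNI-like repeats included), 10 carried an FBD or another F-box associated domain without an LRR, 3 had a phloem protein PP2 or tubby domain, and 35 descriptions named no further domain. These groups follow the wording of the descriptions, and a gene with none named may still have a further domain. The 35 include AFR, which has Kelch repeats. They also include AT4G22280 and AT4G22390, whose product names are RNI-like and F-box associated. Differences between the groups are therefore not shown to be differences between domains. Genes listed higher made up 8 of 11 Kelch, 13 of 21 LRR, 7 of 10 associated, 3 of 3 PP2 or tubby and 31 of 35 genes with none named. Counting each gene in which an FBD is named, with or without LRR, 11 of 16 were listed higher and 5 lower. The median deposited log2 fold change of the genes listed higher was 1.96 for Kelch, 3.42 for LRR, 2.70 for associated, 2.15 for PP2 or tubby and 3.71 for genes with none named. With genes at 0 reads in Col-0 at their bound it was 1.89 for Kelch, 2.87 for LRR, 2.11 for associated and 2.62 for genes with none named. Descriptions that call the gene putative or probable covered 26 genes, of which 24 were listed higher, 21 of them with a Col-0 mean under 10 normalised reads. Genes with 1 exon made up 23 of the 80 (28.8%, against 21.7% of all listed genes). By chromosome, 17 genes were higher and 6 lower on chromosome 1, 7 and 3 on chromosome 2, 14 and 5 on chromosome 3, 8 and 2 on chromosome 4, and 16 and 2 on chromosome 5.

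**Figure D3:**
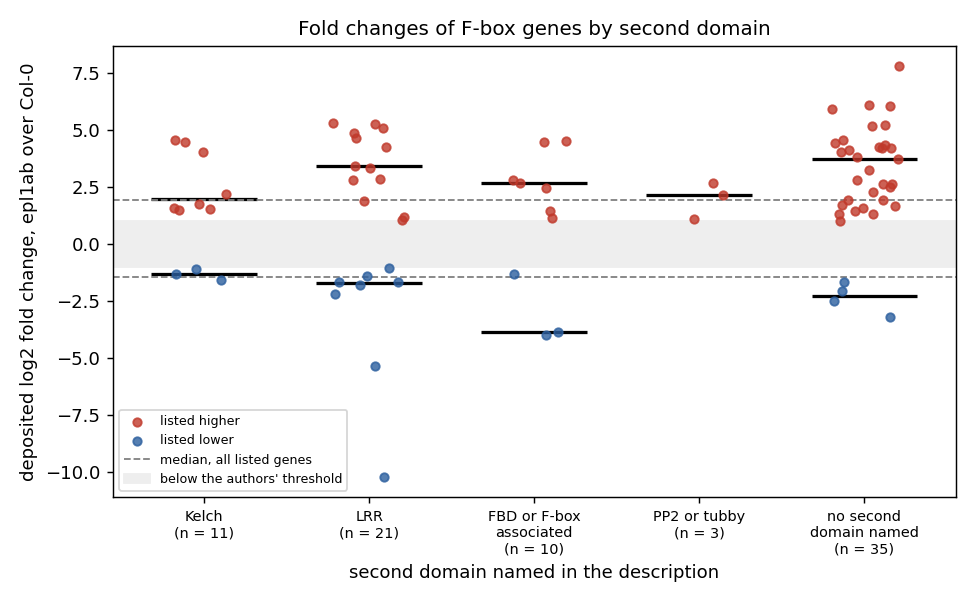
Deposited log2 fold change (epl1ab over Col-0) of each F-box gene by second domain; red points are genes listed higher, blue points genes listed lower, black bars the median per direction, dashed lines the medians of all listed genes (1.94 and -1.45), and the grey band the range the authors' threshold left out. Kelch genes stay between -1.57 and 4.55, and AT3G59250, at -10.22, lies farthest from 0.

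Kelch repeats fold into a propeller that binds substrates. AT1G26930, the Kelch gene with the highest level per kb in epl1ab, had 507, 496 and 506 normalised reads in Col-0 and 1543, 1497 and 1504 in epl1ab. Its epl1ab libraries all lay above its Col-0 libraries, and it rose by 1.59 ± 0.08 (log2, SE; edgeR adjusted p = 1.98e-06). AT3G17280 had 43, 52.6 and 52.5 normalised reads in Col-0 and 125, 148 and 161 in epl1ab, a rise of 1.55 ± 0.18 (edgeR adjusted p = 9.23e-05). That call did not hold with DESeq2's size factors estimated from the listed genes alone, where its value was 0.43. Those factors assume that most listed genes are unchanged, and they shifted the median log2 fold change by -1.11. With the recovered factors, DESeq2's test gave AT3G17280 a log2 fold change of 1.55 and called it. The 3 Kelch genes listed lower had a median Col-0 level of 389.9 normalised reads per kb, against 6.03 for the 8 listed higher. AT3G24760 had 865, 906 and 916 normalised reads in Col-0 and 389, 336 and 358 in epl1ab, and fell by 1.31 ± 0.10 (edgeR adjusted p = 1.19e-05). AT1G57790 had 508, 597 and 514 in Col-0 and 185, 174 and 187 in epl1ab, and fell by 1.57 ± 0.12 (edgeR adjusted p = 1.21e-05). AT4G25710 went from 485, 450.1 and 504 normalised reads to 211, 233 and 220.1, and fell by 1.11 ± 0.11 (edgeR adjusted p = 4.43e-05). No library of one group reached those of the other in any of these 5 genes, as in 98.5% of all listed genes. Among weaker Kelch genes, AT3G18720 had a mean of 1.79 normalised reads in Col-0 and 42.5 in epl1ab, and rose by 4.46 ± 0.37 (edgeR adjusted p = 1.77e-05). AT4G29370 had means of 4.22 and 71.3, and rose by 4.00 ± 0.41 (edgeR adjusted p = 5.20e-05). AT5G48980 rose by only 1.48 ± 0.34 (edgeR adjusted p = 0.00326). AT3G03726 had 0 reads in every Col-0 library and 15 reads over epl1ab. Set against 3 reads over the Col-0 group that is 4.06-fold higher, a value that leaves out counting error in the 15 reads.

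AT3G27150 is a Kelch gene known as a target of miR2111, a microRNA of Arabidopsis that accumulates under phosphate starvation. The mature miR2111a-5p (chr3:2854311-2854331, plus strand) and the stretch of AT3G27150 that pairs with it (chr3:10010764-10010784, minus strand, in the coding sequence), both from RefSeq's annotation of TAIR10.1, are printed because this is a listed F-box gene with a known microRNA site. Capitals mark the seed (bases 2 to 8) in the microRNA and the bases complementary to it in the site.
miR2111a-5p: uAAUCUGCauccugagguuua
AT3G27150 site: gAAACCTaAGGATGCAGATTA
The site had 2 mismatches to the microRNA. AT3G27150 had 57, 47.3 and 52.5 normalised reads in Col-0 and 146, 191 and 189.9 in epl1ab, without overlap, as in 98.5% of all listed genes. It rose by 1.75 ± 0.18 (log2, SE; edgeR adjusted p = 4.93e-05). No MIR2111 locus was among the listed genes, and mature microRNAs are not measured in these libraries, so their part in the rise was not tested. Against the 428 annotated mature microRNAs, 6 of the 80 genes had at least 1 match with at most 3 mismatches, AT3G27150 among them. The share among all listed genes was not counted, so nothing particular to F-box genes can be read from that count.

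The largest falls of single genes were those of the LRR genes AT3G59250 and AT1G78750. As a group, the 8 LRR genes listed lower did not fall most, with a median deposited log2 fold change of -1.73. It was -3.89 for the 3 associated genes listed lower, -2.30 for the 4 with none named and -1.31 for the 3 Kelch genes. AT1G78750, an F-box gene with FBD and LRR domains, had 101, 92.4 and 98.8 normalised reads in Col-0 and 0.87, 2.89 and 3.35 in epl1ab, and fell by 5.29 ± 0.33 (log2, SE; edgeR adjusted p = 5.09e-06). With epl1ab replicate 1 as the only library of its group AT1G78750 fell by 6.62. AT1G16930, of the same make-up, had 296, 332 and 371 in Col-0 and 109, 109 and 97.1 in epl1ab, and fell by 1.66 ± 0.14 (edgeR adjusted p = 2.05e-05). Other LRR genes rose from low levels. AT5G44980 had 11, 25.8 and 14.6 normalised reads in Col-0 and 170, 186 and 193 in epl1ab, and rose by 3.41 ± 0.29 (edgeR adjusted p = 2.07e-05). AT1G48400 had 14, 10.7 and 4.88 in Col-0 and 86.6, 103 and 115 in epl1ab, and rose by 3.32 ± 0.32 (edgeR adjusted p = 4.00e-05), with 6.45% of its 50-base windows also found elsewhere in the genome. In these 4 genes, as in 98.5% of all listed genes, every epl1ab library lay on one side of every Col-0 library. AT5G44940, which lies near AT5G44980 on chromosome 5 and shares 83.1% of its aligned coding bases, had no Col-0 read and 15 reads over epl1ab. That pair shares a stretch of 71 identical bases, longer than a read, so some of the reads of AT5G44940 cannot be assigned with certainty.

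The 4 genes on chromosome 3 (TAIR10, 21884426 to 21903284, a span of 18859 bp) were the largest group of F-box genes with neighbouring starts within 50 kb, and they split evenly between directions. In genome order they were higher, lower, higher and lower in epl1ab. AT3G59190 had 15, 22.6 and 13.4 normalised reads in Col-0 and 106, 119 and 136 in epl1ab, and rose by 2.81 ± 0.24 (log2, SE; edgeR adjusted p = 2.21e-05). AT3G59200, which begins 314 bp past its end on the same strand, had 36, 44.0 and 30.5 in Col-0 and 6.06, 12.5 and 5.86 in epl1ab, and fell by 2.19 ± 0.35 (edgeR adjusted p = 0.000502). AT3G59230 had 5, 4.30 and 2.44 in Col-0 and 45.9, 24.1 and 16.7 in epl1ab, and rose by 2.82 ± 0.54 (edgeR adjusted p = 0.00137), or by 3.48 with epl1ab replicate 1 as the only library of its group. AT3G59250 had 187, 211 and 188 in Col-0 and no read in any epl1ab library. Against 3 reads over the epl1ab group, AT3G59250 was at least 220.4-fold lower (edgeR adjusted p = 5.79e-06). In each of the 4 genes the groups did not overlap, as in 98.5% of all listed genes. None of the 4 had a 50-base window found elsewhere in the genome. AT3G59250 overlaps AT3G59245, a gene on the other strand, by 37 bp.

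A total lack of reads in epl1ab was rare in the tables. Of the 1675 genes listed lower that had at least 100 reads over Col-0, 3 (0.179%) had no read in any epl1ab library, namely AT3G59250 with 537 Col-0 reads, AT5G58310 with 232 and AT5G62040 with 103. The annotation places 8 protein-coding genes in the chromosome 3 stretch, of which 5 are listed. The fifth is PRN (AT3G59220), a pirin, with a deposited log2 fold change of 1.69 in the authors' table. The other 3 genes there, AT3G59210, AT3G59240 and AT3G59245, are not in the tables. The pair most alike, AT3G59230 and AT3G59250 (71.6%), moved in opposite directions, as did the pair least alike, AT3G59190 and AT3G59200 (66.7%).

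**Figure D4:**
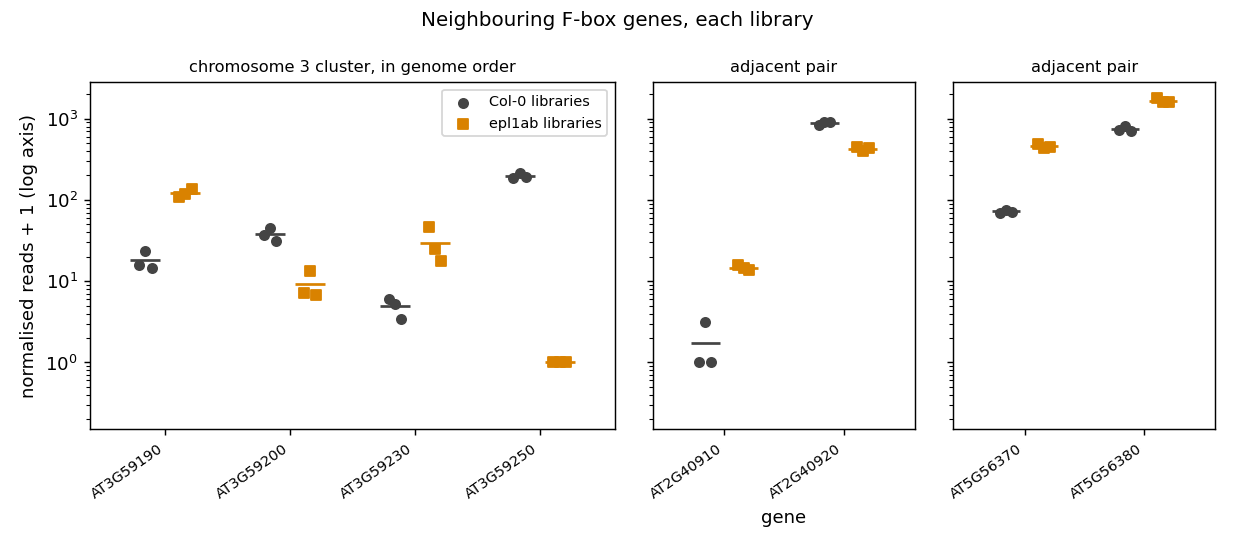
Normalised reads plus 1 (log axis) of neighbouring F-box genes in each library; grey circles are Col-0 libraries, orange squares epl1ab libraries, and bars the means of 3 libraries. The 4 chromosome 3 genes alternate in direction, with AT3G59250 at 0 reads in epl1ab, AT2G40910 rises beside AT2G40920, which falls, and AT5G56370 and AT5G56380 both rise.

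Across the genome, 3 pairs of listed F-box genes were direct neighbours in the annotation, and 2 of the pairs had opposite directions. AT3G59190 and AT3G59200 are one. In the other, 694 bp apart on chromosome 2, AT2G40920 (F-box with LRR) had 843, 922 and 897 normalised reads in Col-0 and 453, 398 and 429 in epl1ab, and fell by 1.06 ± 0.10 (log2, SE; edgeR adjusted p = 3.08e-05). Its neighbour AT2G40910, which has nearly the same first coding bases as printed above, had 0, 2.15 and 0 in Col-0 and 14.7, 13.5 and 12.6 in epl1ab. Its 2 reads over Col-0 and 46 over epl1ab gave an 18.7-fold higher level, with a 95% exact binomial interval of 4.88 to 159 for counting error alone. The third pair, 660 bp apart on chromosome 5, consists of FBD-associated genes that both rose. AT5G56370 had 69, 75.2 and 69.5 normalised reads in Col-0 and 493, 437 and 454 in epl1ab, and rose by 2.69 ± 0.12 (edgeR adjusted p = 1.87e-06). AT5G56380 had 719, 808 and 711 in Col-0 and 1790.1, 1588 and 1623 in epl1ab, and rose by 1.16 ± 0.09 (edgeR adjusted p = 1.45e-05). With DESeq2's size factors estimated from the listed genes alone its value was 0.05 and was not called. The coding sequences of that pair share 58.8% of their aligned bases, with no identical stretch over 23 bases. AT2G40910 and AT2G40920 were chosen for description after their values were seen. How often other neighbouring listed genes have opposite directions was not tested.

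Another group of 3 on chromosome 4 (11736472 to 11815164) was listed higher throughout. AT4G22390 had 51, 49.4 and 47.6 normalised reads in Col-0 and 686, 622 and 632 in epl1ab, and rose by 3.71 ± 0.12 (log2, SE; edgeR adjusted p = 9.12e-07). AT4G22170 had 2, 4.30 and 6.10 in Col-0 and 25.1, 15.4 and 29.3 in epl1ab, and rose by 2.51 ± 0.45 (edgeR adjusted p = 0.000963). AT4G22280 had 103, 104 and 109 in Col-0 and 198, 225 and 212 in epl1ab, and rose by 1.01 ± 0.13 (edgeR adjusted p = 0.000158). Its value was -0.10 with DESeq2's size factors estimated from the listed genes alone. The groups did not overlap in any of the 3, as in 98.5% of all listed genes. These genes are not close copies, with 41.7% to 43.9% of aligned coding bases identical, and 32 of the 39 annotated genes in that stretch are not listed. In AT4G22390 6.91% and in AT4G22280 5.19% of the 50-base windows occur elsewhere in the genome. The count of F-box genes in groups of at least 3 was 7 with neighbouring starts within 50 kb.

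Genes with an FBD or F-box associated domain also included deep falls. AT5G44490 had 229, 237 and 219.6 normalised reads in Col-0 and 10.4, 11.6 and 20.9 in epl1ab, and fell by 3.98 ± 0.26 (log2, SE; edgeR adjusted p = 6.75e-06). AT3G18320 had 152, 187 and 174 in Col-0 and 5.19, 16.4 and 13.4 in epl1ab, and fell by 3.87 ± 0.34 (edgeR adjusted p = 2.43e-05). With epl1ab replicate 1 as the only library of its group AT3G18320 fell by 5.01. Every epl1ab library of these 2 genes was below every Col-0 library, and the groups did not overlap in 98.5% of all listed genes. In AT3G18320, 33.2% of the 50-base windows occur elsewhere in the genome, so its level is uncertain. AT5G60610 rose, from 30, 33.3 and 29.3 to 76.2, 81.02 and 96.2 normalised reads, by 1.45 ± 0.19 (edgeR adjusted p = 0.000164). With DESeq2's size factors estimated from the listed genes alone its value was 0.33 and was not called.

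The F-box gene with the largest deposited log2 fold change upwards, 7.80 in the authors' deposited table, had no second domain named. This gene, AT5G25290, had 1, 0 and 0 reads in Col-0 and 99, 85 and 112 reads in epl1ab, so that its scaled level was 240.4 times higher (95% exact binomial interval, for counting error alone, 42.8 to 9526). Its promoter and that of AT3G59250, the gene with the largest fall, are printed for these opposite ends of the range (TAIR10.1, 250 bases before to 50 bases after the annotated start). Capitals mark TATAAA on either strand, and a match does not show a working TATA box. The annotated start of AT3G59250 is also its first coding base, and the printed stretch of AT5G25290 likewise has ATG at its annotated start. Neither stretch is therefore shown to be placed on a transcription start. The match in AT3G59250 reads TTTATA, that is TATAAA on the other strand.
AT5G25290 promoter (chr5:8778342-8778641, plus strand): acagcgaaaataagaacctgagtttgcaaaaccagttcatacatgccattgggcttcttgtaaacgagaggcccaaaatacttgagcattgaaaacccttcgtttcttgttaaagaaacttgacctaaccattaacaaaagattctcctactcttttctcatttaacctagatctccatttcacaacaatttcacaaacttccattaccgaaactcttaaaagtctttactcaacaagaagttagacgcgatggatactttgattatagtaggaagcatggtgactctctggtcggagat
AT3G59250 promoter (chr3:21903235-21903534, minus strand): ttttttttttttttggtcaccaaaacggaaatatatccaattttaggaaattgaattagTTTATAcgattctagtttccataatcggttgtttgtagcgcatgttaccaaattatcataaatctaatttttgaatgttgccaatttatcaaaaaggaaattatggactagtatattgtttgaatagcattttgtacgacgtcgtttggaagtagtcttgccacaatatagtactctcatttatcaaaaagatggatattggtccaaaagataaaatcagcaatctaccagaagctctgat
TATAAA, searched on both strands, was in the promoters of 39 of the 80 F-box genes (48.8%) and of 52.2% of all 27443 promoters of protein-coding genes. CACGTG, the G-box, which reads the same on both strands, was in 4 (5.0%) and in 7.68% of all.

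Other genes with no second domain named spanned a wide range of levels. AT1G64540 had 6, 4.30 and 4.88 normalised reads in Col-0 and 93.5, 104 and 91.2 in epl1ab, and rose by 4.21 ± 0.23 (log2, SE; edgeR adjusted p = 3.24e-06). SKIP28 (AT2G01620), an SKP1-interacting protein and the F-box gene with the highest level per kb in Col-0, had 1084, 1121 and 1092 in Col-0 and 331, 364 and 336 in epl1ab, and fell by 1.68 ± 0.09 (edgeR adjusted p = 2.94e-06). AT1G49990 had 149, 156 and 189 in Col-0 and 32.03, 28.0 and 25.9 in epl1ab, and fell by 2.52 ± 0.18 (edgeR adjusted p = 9.91e-06). AT1G74875 had 30, 30.1 and 29.3 in Col-0 and 10.4, 5.79 and 5.02 in epl1ab, and fell by 2.05 ± 0.31 (edgeR adjusted p = 0.000392). Its description names an F-box protein only as its best match, and it overlaps AT1G74870 on the other strand, which is listed higher. AFR (AT2G24540), an F-box protein with Kelch repeats that acts in far-red light signalling through phytochrome A, was chosen after its values were seen. It had 91, 82.7 and 91.5 normalised reads in Col-0 and 610.2, 588 and 682 in epl1ab, and rose by 2.82 ± 0.12 (edgeR adjusted p = 1.57e-06). AFR overlaps the non-coding gene AT2G24545 on the other strand over 1320 bp, and that gene is listed higher too. The libraries were made with a stranded kit, but the labels do not say whether counting used strand, so the reads of such a pair may not be told apart.

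The PP2 and tubby genes were all listed higher. PP2-B15 (AT1G09155), whose PP2 domain is that of a phloem lectin, had 14, 22.6 and 15.9 normalised reads in Col-0 and 64.1, 141 and 131 in epl1ab, and rose by 2.67 ± 0.37 (log2, SE; edgeR adjusted p = 0.00026). With epl1ab replicate 1, its lowest epl1ab library, as the only one of its group, the rise was 1.87. PP2-A11 (AT1G63090) had 465, 484 and 538 in Col-0 and 1156, 952 and 1035 in epl1ab, and rose by 1.08 ± 0.11 (edgeR adjusted p = 5.29e-05). Its value was -0.019 with DESeq2's size factors estimated from the listed genes alone. The tubby-like TULP5 (AT1G43640) had 2, 4.30 and 8.54 in Col-0 and 13.8, 28.0 and 22.6 in epl1ab. The groups did not overlap in any of the 3, as in 98.5% of all listed genes.

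The epl1ab libraries differed among themselves for some weak F-box genes. Of the 63 genes with an epl1ab mean of at least 10 normalised reads, 11 were over 2-fold apart between the highest and the lowest epl1ab library, where 11.5% of all listed genes at that level were. AT5G04010 (NSFBX) had 1.73, 28.9 and 46.9 normalised reads in epl1ab replicates 1, 2 and 3, after 2 reads over Col-0. It was the only F-box gene over 8-fold lower in replicate 1 than in both other libraries. AT2G21930 was close to that line, with 2.60, 20.3 and 18.4. AT5G55150 had the opposite order, with 51.1, 7.72 and 21.8. These 3 genes were chosen after their values were seen, and none of them passed the low-count filter. With replicate 1 as the only epl1ab library, assumed to vary like the Col-0 libraries, edgeR called 45 F-box genes higher and 18 lower of 65 in the fit; nearly all genes in the fit are called, so this count does not show that the pattern holds in replicate 1.

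**Figure D5:**
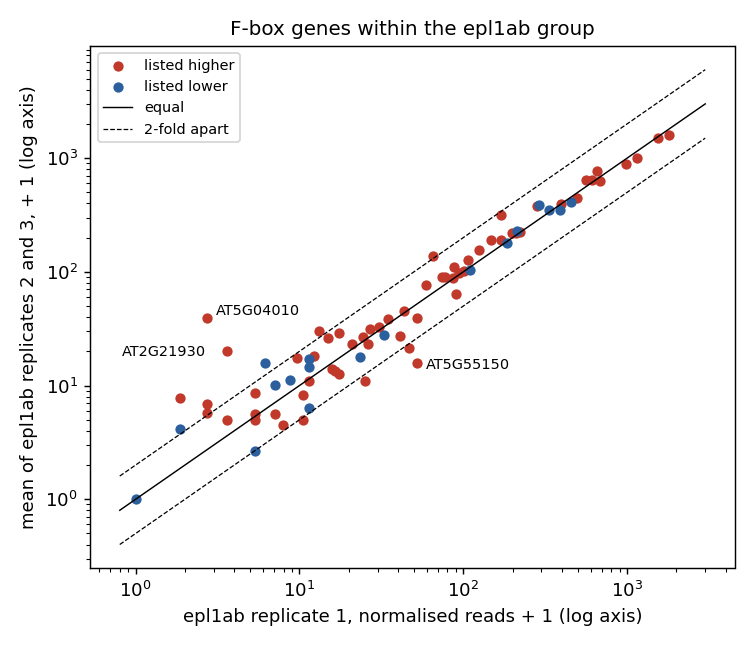
Normalised reads plus 1 of each F-box gene in epl1ab replicate 1 (x axis) and as the mean of replicates 2 and 3 (y axis), on log axes; red points are genes listed higher, blue points genes listed lower, the solid line marks equal levels and the dashed lines a 2-fold difference. Most genes lie within the dashed lines, and AT5G04010 lies farthest from them, with 1.73 normalised reads in replicate 1 against 28.9 and 46.9.

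F-box genes with known functions were looked up by a list of 44, of which 2 (FBS1 and AUF2) are listed and 42 are not. In the annotation, 10.4% of the genes with an F-box product and 18.5% of all protein-coding genes are listed, so most genes of any such list are absent. The list does not hold every F-box gene of known function, and AFR, described above, is not on it. The unlisted genes include TIR1 and the other auxin receptors, COI1 for jasmonate, EBF1 and EBF2 for ethylene, SLY1 for gibberellin, MAX2 for strigolactone and the photoreceptors ZTL, FKF1 and LKP2. A gene outside the tables may have changed by less than the authors' threshold or been too weak to call. The listed ones were FBS1 (AT1G61340), an F-box protein induced by stress, and AUF2 (AT1G22220), whose description lacks the words F-box. FBS1 had 98, 90.2 and 73.2 normalised reads in Col-0 and 209, 181 and 257 in epl1ab, and rose by 1.31 ± 0.19 (log2, SE; edgeR adjusted p = 0.000324). AUF2 had 77, 75.2 and 83.0 in Col-0 and 137, 179 and 189.1 in epl1ab, and rose by 1.10 ± 0.17 (edgeR adjusted p = 0.00048). The call of FBS1 did not hold with DESeq2's size factors estimated from the listed genes alone, where its value was 0.19.

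For the other parts of the SCF ligase, 3 of 39 genes for cullins, RBX1, CAND1, SKP1-like proteins and the COP9 signalosome, which regulates cullins, are in the tables, beside 18.5% of all protein-coding genes, and 36 are not. The SKP1-like ASK20 (AT2G45950) had 1030.0, 979.6 and 953 normalised reads in Col-0 and 482, 495 and 438 in epl1ab, without overlap, as in 98.5% of all listed genes. It fell by 1.07 ± 0.09 (log2, SE; edgeR adjusted p = 2.46e-05). CUL2 (AT1G02980), a cullin, had 0, 1.07 and 1.22 in Col-0 and 3.46, 7.72 and 12.6 in epl1ab. ASK9 (AT3G21850) had 2, 3.22 and 0 in Col-0 and 12.1, 8.68 and 16.7 in epl1ab. Both are listed higher and neither passed the low-count filter. CUL1, ASK1 and ASK2, the core of most SCF ligases, are not listed.

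The annotation counts F-box genes by product name, a set that only partly overlaps the 80 genes chosen by description. What share of all genes with such a description is listed is therefore not known. The TAIR10.1 annotation names an F-box in the product of 656 genes, of which 68 (10.4%) are listed, 53 higher and 15 lower. Of 27562 protein-coding genes, 5110 (18.5%) are listed. Of the 80 F-box genes by description, 62 are also F-box genes by product. With the 6 genes that only the product names, the set had 86 genes, 67 higher and 19 lower. How many of the unlisted F-box genes had too few reads to be called was not tested, since the tables hold no values for them. Exactly repeated sequence limited few values: 63 of the 80 genes had no 50-base window found elsewhere in the genome, and 17 had some. Only AT3G18320, AT5G02700 and AT4G09920 had over 20%. Apart from this, 16 of the 80 overlap a gene on the other strand, and whether counting used strand is not known.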

How the data were processed

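Whole-seedling RNA was depleted of ribosomal RNA, made into stranded libraries and sequenced as 50-base single-end reads, per the labels' protocols. The submitters' processing notes name TAIR10 and DESeq2, and no aligner or counter. The deposited tables hold whole-number read counts per gene and library, and the authors' log2 fold changes and adjusted p-values, for the 5330 genes past their thresholds. Full library sizes are not known.

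The authors' scaling factors were recovered by least squares from their log2 fold changes over 1774 genes with at least 200 reads (median residual 0.00029 log2): 1.0, 0.931 and 0.820 for Col-0 and 1.16, 1.04 and 1.20 for epl1ab. Counts of all listed genes were fitted with edgeR 4.0.16 (quasi-likelihood, filterByExpr, no replicate block), with Benjamini-Hochberg adjustment over 4773 genes; a call is an adjusted p under 0.05. The script was tested on simulated data. An SE is the size of the fitted log2 fold change divided by the square root of its F statistic. Fold changes are edgeR's unless called deposited. Genes at 0 reads were set against 3 reads over the group, with the reads of the other group taken as exact. Intervals cover counting error only. Coding sequences were aligned with mafft 7.526. Alternatives were TMM and DESeq2 1.42.0 size factors, DESeq2's test, no filter, a replicate block, and each library left out.

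The F-box rule, the gene lists (44 characterised F-box genes, 39 SCF genes) and the naming rule were chosen with earlier results of these data known. The naming rule took listed members of those lists, members of a chromosome group of at least 3, and per second domain the 3 genes with the largest log2 fold change in each direction among those called with a level at or above the group's median; this gave 30 genes. Other genes named in the text were chosen after their values were seen.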

Additional observations from a re-analysis of the deposited data

How the results depend on the processing

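Since all genes in the edgeR fit are called, the counts of F-box genes called (44 higher, 18 lower) mostly follow how many pass the low-count filter, and equal counts do not show stability. They were 44 and 18 with TMM factors and with a replicate block, of 62 in each fit. Same-numbered libraries did not deviate together (correlations of -0.39, -0.04 and -0.32). Deviations within a group of 3 sum to 0 and epl1ab replicate 1 stood apart, so this cannot show whether the numbers pair the samples. With the block all 30 named genes kept their call. DESeq2's test called 62 higher and 18 lower, edgeR without the low-count filter 61 and 18, and leaving out each library in turn gave 46 to 50 higher and 18 lower, with 64 to 69 in the fit. DESeq2's size factors, which assume that most listed genes are unchanged, shifted the median log2 fold change by -1.11 (TMM by -0.36) and called 30 higher and 18 lower. Relative to that shift, AT1G63090 turned to -0.019 and AT4G22280 to -0.10, and 4 other named genes lost their call. Without Col-0 replicate 1, which holds the only Col-0 read of AT5G25290, the fitted log2 fold change of that gene went from 7.49 to 9.49. The F-box genes in groups of at least 3 numbered 4 within 20 kb, 7 within 50 kb and 12 within 100 kb. The median log2 fold change of genes listed higher was 2.26 over the 43 with a mean of at least 10 reads per library, against 2.85. Adding genes by product name gave 86 members, and leaving out AT1G74875 gave 79, an alternative added after seeing the data, as was replicate 1 as the only epl1ab library. Depth limits the genes with few reads: 12 had none in Col-0.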

Other observations

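The 6 listed genes that RefSeq's product name, but not the deposited description, calls F-box genes were AT4G34550, AT1G73120, AT5G27920, AT4G15563, AT1G22220 and AT2G42955. PCHL (AT4G34550), which acts in phytochrome B signalling, had 1, 1.07 and 0 normalised reads in Col-0 and 38.1, 34.7 and 25.9 in epl1ab. AT5G27920 had 512, 491 and 516 in Col-0 and 1351, 1417 and 1322 in epl1ab, and its edgeR log2 fold change was 1.43 ± 0.08 (SE; edgeR adjusted p = 3.6e-06). AT1G73120 had 141, 134 and 150.1 in Col-0 and 624, 489.98 and 847 in epl1ab, a log2 fold change of 2.20 ± 0.21 (edgeR adjusted p = 3.68e-05). AT2G42955 was the one listed lower, with 27, 22.6 and 28.1 in Col-0 and 16.4, 9.65 and 5.02 in epl1ab.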
